A study of Mus musculus with 4 samples.

Results

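Perp and 9 genes of the intercalated disc were followed in mouse ventricle with and without the channel gene Trpc6. The genes were taken by symbol from the platform annotation. They were Perp, Dsp, Jup, Pkp2, Pkp4, Dsg2, Dsc2, Cdh2, Ctnna3 and Tjp1, and they were read by 11 of the 23473 gene probes of the array, since Dsp had 2 probes. All 10 genes were among the 15955 genes tested. Perp was chosen from these data, for its higher value in the knockout, and the other 9 for their place at the disc, so the differences of all 10 are given as a description, with standard errors and intervals as their error and with no p-value for a member. The question was whether other desmosome genes follow Perp.

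Total RNA came from ventricular muscle of male mice of strain 129SV, from 2 wild-type samples and 2 samples of the Trpc6 knockout, which lacks the gene by genetic deletion. One array in a single colour (Cy5) carried each sample. The labels give neither the age of the mice nor whether the samples came from separate animals, so a p-value here measures the spread of these samples only, and that spread may be technical. In whole ventricle, fewer cells of a type and less RNA per cell cannot be told apart.

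The intercalated disc joins heart muscle cells end to end. In its desmosomes, the cadherins desmoglein 2 (Dsg2) and desmocollin 2 (Dsc2) reach across the gap between cells, plakoglobin (Jup) and plakophilin 2 (Pkp2) bind their tails, and desmoplakin (Dsp) ties the plaque to desmin filaments. N-cadherin (Cdh2) and alpha-T-catenin (Ctnna3) connect the disc to actin, and in heart both kinds of junction mix. Mutations in desmosome genes are a known cause of arrhythmogenic cardiomyopathy. Perp is a membrane protein with 4 transmembrane passes, related to PMP22 and the claudins, a target of p53 and p63, and a component of desmosomes in stratified epithelia.

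The array median was 95.5 to 106 units, and a probe counted as above background where the spot median lay over the 95th percentile of blank and negative control spots, which was 80.8 to 91.5 units. By that limit, 76.3% to 83.2% of the gene probes were above background. The Trpc6 probe read 80.5 and 89.2 units in wild type against 84.1 and 82.6 units in the knockout, below the limit on all 4 arrays, so the deletion could not be checked here. The cardiomyocyte markers fitted the labelled tissue, with all 10 above background on 4 of 4 arrays and summed normalized intensities of 218600 to 221900 units in wild type and 224500 to 229800 units in the knockout. Precision is limited by the number of arrays.

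All 11 member probes were above background on 4 of 4 arrays. They differed in how far above. The Perp spot read 6.86 and 6.42 times the limit of its array in wild type against 11 and 11.7 times in the knockout. The brighter Dsp probe and the Cdh2 probe read at least 16.4 times the limit on every array. The probes of Jup, Tjp1 and Dsc2 stayed between 1.5 and 1.97 times the limit, and the dimmer Dsp probe between 1.09 and 1.18 times. For such dim probes normalization with an offset shrinks differences, so their values below bear less weight.

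**Figure D1:**
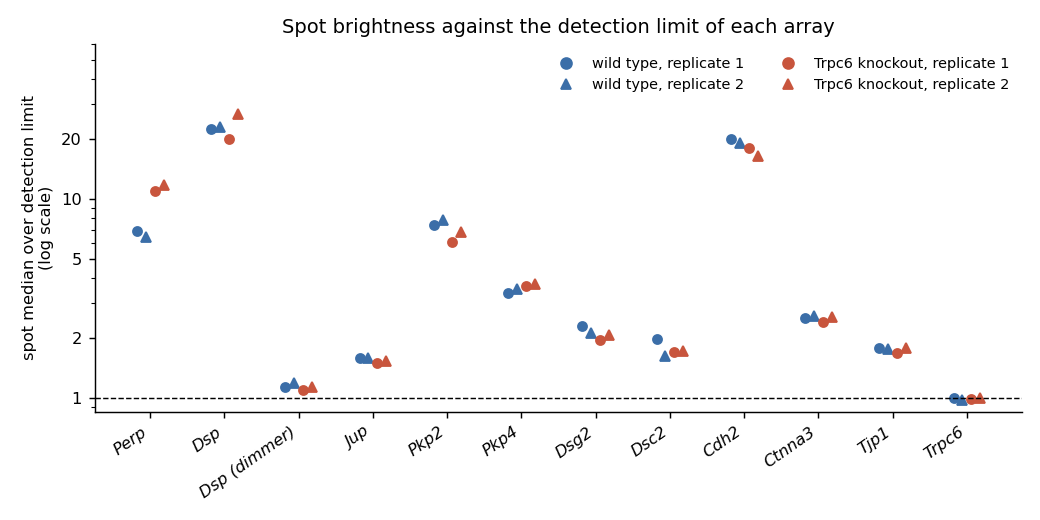
Spot median of each member probe and of Trpc6 divided by the detection limit of its array (log scale, dashed line at 1), for the 2 wild-type (blue) and 2 knockout (red) arrays. All member probes lie above 1, and the Perp points of the knockout, at 11 and 11.7, lie above those of wild type, at 6.86 and 6.42.

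Perp was higher on both knockout arrays. Its spot median was 554.1 and 587.1 units in wild type against 939.8 and 976.5 units in the knockout. After background correction and quantile normalization its log2 intensity was 9.07 and 9.02 in wild type against 9.86 and 9.93 in the knockout. The groups did not overlap, and the gap between replicates was 0.052 in wild type and 0.072 in the knockout. The knockout mean lay 0.85 ± 0.05 (SE, n = 2 arrays per group) above wild type on the log2 scale, which is 1.81-fold. In the authors' table the values were 467.2 and 402.8 units in wild type against 814.3 and 916 units in the knockout, a ratio of 1.99. Of all genes tested, 6 had a larger difference in this direction.

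The size of the Perp difference changed little with the array left out. It was 0.88 and 0.83 on the log2 scale without the first or the second wild-type array, and 0.89 and 0.82 without the first or the second knockout array. The local background beside the Perp spot was 299.1 and 205.3 units in wild type against 175.7 and 590.7 units in the knockout, so it did not separate the groups. The 40 kept probes within 3 columns and 3 rows of the Perp spot had log2 differences of -0.26 to 0.20 with a median of 0.01, and the median of its block was 0.004. No probe close by on the array thus came near the value of Perp. Whether spot position or local background had a part in the Perp difference was not tested.

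**Figure D2:**
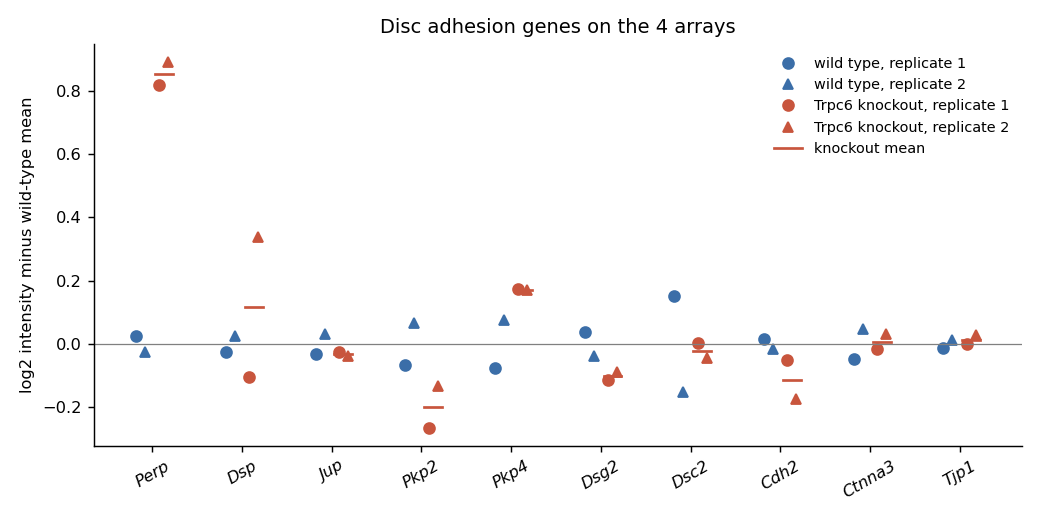
Normalized log2 intensity of each gene minus its wild-type mean, for each of the 4 arrays, with a red line at the knockout mean. Perp stands at about 0.85 in the knockout, and each of the other 9 genes has a knockout mean between -0.20 and 0.17.

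None of the other 9 genes came near Perp. Their log2 differences ran from -0.20 to 0.17 with a median of -0.02, against a median of 0.002 over all genes. Knockout means were higher in 4 and lower in 5, where 51.1% of all genes were higher. They were higher in 2 after scaling to a common median, where Tjp1 and Ctnna3 turned, and in 3 with the local background subtracted. The groups did not overlap in 1 higher and 3 lower genes, where 19.4% and 17.4% of all genes did the same, 36.8% together. Because the members were chosen with this comparison known, nothing is read from these counts. With limma and Benjamini-Hochberg adjustment 0 of 15955 genes passed an adjusted p of 0.05, so percent called was 0 there, and 1076 genes had an unadjusted p under 0.05. These were 585 higher and 491 lower, but 397 and 676 with arrays scaled to a common median.

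Among the plaque proteins of the desmosome, desmoplakin was split by 1 array. Its brighter probe was at 10.83 and 10.87 in wild type against 10.75 and 11.19 in the knockout, so the knockout arrays lay on both sides of wild type. The log2 difference of 0.12 ± 0.15 was -0.10 without the second knockout array and 0.34 without the first. The dimmer probe was at 6.04 and 6.17 in wild type against 6.03 and 6.05 in the knockout, a difference of -0.065. The 2 probes of Dsp thus disagreed in sign, and the groups overlapped in both.

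Plakoglobin, which binds the tails of both kinds of cadherin, was at 6.66 and 6.73 in wild type against 6.67 and 6.66 in the knockout. The difference of -0.03 ± 0.04 was within the replicate gap of 0.063 in wild type, on a probe near background.

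Plakophilin 2 was lower on both knockout arrays. Its spot median was 599.1 and 713.4 units in wild type against 518.2 and 564.9 units in the knockout, and its log2 intensity 9.18 and 9.31 against 8.98 and 9.11. The groups did not overlap, but the gap between the nearest arrays of the 2 groups was smaller than the gap of 0.132 between replicates in each group. The difference was -0.20 ± 0.07. It kept its sign without any 1 array, from -0.26 to -0.13, and was -0.04 after the local background was subtracted. In the authors' table Pkp2 read 511.4 and 504.7 units in wild type against 413.7 and 494.8 units in the knockout, a ratio of 0.894.

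Plakophilin 4, an armadillo protein related to plakophilin 2 and to p120-catenin, was the member nearest to Perp in pattern. It was at 7.94 and 8.09 in wild type against 8.19 and 8.19 in the knockout, a difference of 0.17 ± 0.06, or 1.13-fold. The groups did not overlap. The 2 wild-type arrays stood 0.149 apart, and the difference was 0.10 without the first and 0.25 without the second of them. In the authors' table the values were 189.6 and 190 units in wild type against 217.5 and 234.7 units in the knockout, a ratio of 1.19. With the local background subtracted the difference was 0.115 ± 0.222, and the groups overlapped. Its spot shares block 12 and row 4 with that of Perp, at columns 67 and 44, and the 38 kept probes around it had a median difference of -0.002.

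The 3 cadherins of the disc had knockout means below wild type, by little, where no local background was subtracted. Dsg2 was at 7.31 and 7.24 in wild type against 7.16 and 7.19 in the knockout, without overlap, a difference of -0.10 ± 0.05. In the authors' table its groups overlapped, with 104.3 and 85.7 units against 80.3 and 92 units. Dsc2 was at 7.06 and 6.76 in wild type, with both knockout arrays, at 6.91 and 6.86, between them. Its difference of -0.02 ± 0.11 was 0.13 without the first wild-type array and -0.17 without the second. Cdh2 was at 10.65 and 10.61 in wild type against 10.58 and 10.46 in the knockout, without overlap, a difference of -0.11 ± 0.06. Its authors' values of 1505.5 and 1332.2 units against 1378.5 and 1319.3 units overlapped. With the local background subtracted, the differences of Dsg2, Dsc2 and Cdh2 were -0.25, 0.08 and -0.58.

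Among the scaffolds at the disc, Ctnna3, which links the cadherin complex to actin and binds plakophilin 2, was at 7.48 and 7.57 in wild type against 7.51 and 7.56 in the knockout, a difference of 0.01 ± 0.05. Tjp1, the ZO-1 protein that borders gap junctions in heart, was at 6.88 and 6.90 in wild type against 6.89 and 6.92 in the knockout, a difference of 0.01 ± 0.04. Both overlapped between the groups.

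The intervals give the precision of these differences. The 95% limma interval of each of the 9 genes ended at or below 0.53, which was the upper bound of Dsp, and so below the 0.85 of Perp. The same held with an offset of 0, which does not shrink dim probes. There the highest upper bound was 0.56 and the Perp difference 0.92. In the authors' table it held as well, with 0.72 for Pkp4 against 0.99 for Perp. With the local background subtracted it held for 8 of 9 genes, and the bound of Pkp4 was 0.79 against a Perp difference of 0.74. Perp was chosen for its high value here, so its difference is not a neutral mark to measure against. Its own interval was 0.73 to 0.98 with an offset of 50 and 0.62 to 1.22 with an offset of 0. In the authors' table it was 0.51 to 1.48, and with the local background subtracted 0.02 to 1.47. In the authors' table it overlapped the intervals of Pkp4, Dsp, Dsc2, Ctnna3 and Tjp1. With the local background subtracted it overlapped those of all other members except Dsp and Cdh2. No test of a difference from Perp was made, and these intervals do not show that the 9 genes were unchanged. Changes of the size of that in Pkp4 or Pkp2 lie within the intervals of several of them.

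**Figure D3:**
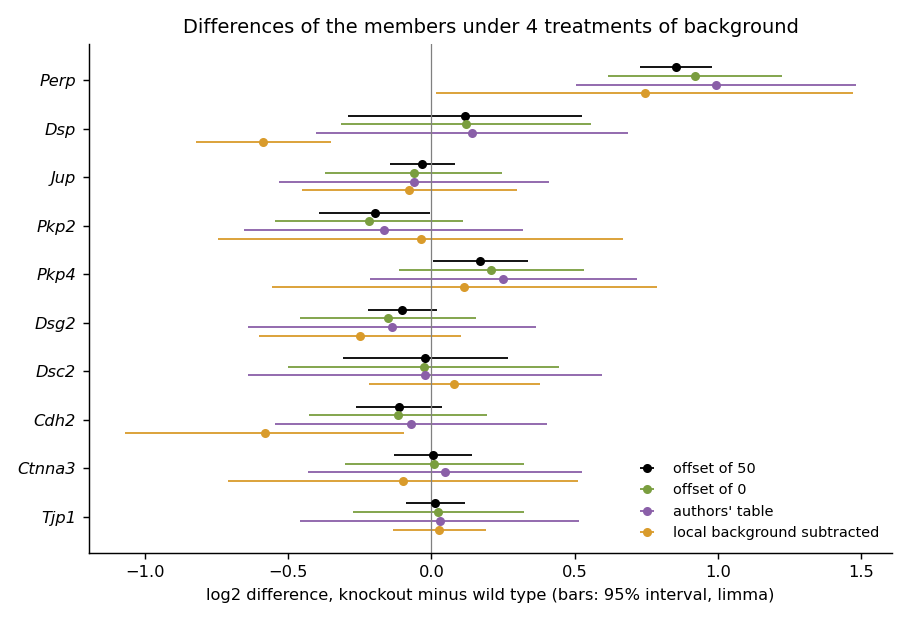
Log2 difference (knockout minus wild type) of each gene with its 95% limma interval, under an offset of 50, an offset of 0, the authors' table and subtraction of the local background. Perp is at 0.74 to 0.99 in the 4 settings, and Dsp and Cdh2 reach -0.59 and -0.58 only with the local background subtracted.

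The background correction mattered most for the bright probes of Dsp and Cdh2. The local background beside the Dsp spot was 667.8 and 388.4 units in wild type against 787.6 and 1369.6 units in the knockout, higher on both knockout arrays. With it subtracted, the Dsp difference was -0.59 ± 0.08 and that of Cdh2 -0.58 ± 0.16. No direction is given for Dsp for that reason. The Perp difference was then 0.74, with a standard error of 0.24 against 0.05 without local background. Its interval began at 0.02. Arrays were left out only without local background, so how far the 0.74 rests on a single array was not tested.

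**Figure D4:**
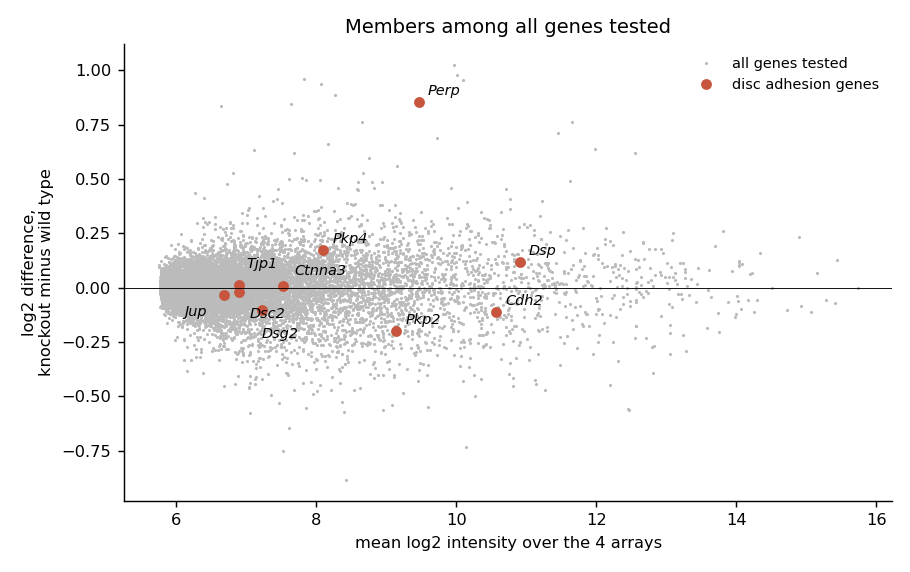
Log2 difference (knockout minus wild type) against mean log2 intensity over the 4 arrays, for all genes tested (grey) and the 10 disc adhesion genes (red). Perp lies above the cloud at 0.85, and the other 9 lie inside it, between -0.20 and 0.17.

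RefSeq promoter windows of build GRCm38.p6 were used for 5 of the 10 genes: Dsp, Jup, Pkp4, Ctnna3 and Tjp1. The search left out a chromosome, so a member on it need not lack a window. No window was at hand for Perp or Pkp2. The 250 bases before the start are shown for Pkp4, the member nearest to Perp in pattern, and Dsp, the anchor of the plaque. Capitals mark GC boxes (GGGCGG on either strand), the site of Sp1 family factors, and CCAAT boxes (CCAAT on either strand), the site of NF-Y. Matches may overlap.
Pkp4, chr2:59160600-59160849, plus strand: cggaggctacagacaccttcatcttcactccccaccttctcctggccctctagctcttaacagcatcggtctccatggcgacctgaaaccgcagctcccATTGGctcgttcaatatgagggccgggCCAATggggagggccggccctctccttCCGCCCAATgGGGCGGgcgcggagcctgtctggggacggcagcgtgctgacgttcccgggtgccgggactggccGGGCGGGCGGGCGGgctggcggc
Dsp, chr13:38151044-38151293, plus strand: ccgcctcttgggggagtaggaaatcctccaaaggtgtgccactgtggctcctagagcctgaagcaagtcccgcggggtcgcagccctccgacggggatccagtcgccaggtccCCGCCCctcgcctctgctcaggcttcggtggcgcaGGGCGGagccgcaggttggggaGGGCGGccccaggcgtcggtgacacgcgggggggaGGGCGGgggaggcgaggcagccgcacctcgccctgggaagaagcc
The Pkp4 window holds 5 GC boxes and 3 CCAAT boxes, and the Dsp window 4 GC boxes and 0 CCAAT boxes. Of 32851 promoter windows of this length, 32.7% hold a GC box and 33.8% a CCAAT box, so the presence of either is common. The share of windows with as many boxes as these was not computed. A second Pkp4 start, also in the table, holds 0 of either.

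Around the 10 genes, 7 lists of related genes held 123 entries, of which 112 had a named probe and 96 were kept. Of these, 44 were higher and 52 lower, with a median of -0.01. At a limma unadjusted p under 0.05 there were 3 higher and 3 lower, together 6.25% of the lists, against 3.67% higher and 3.08% lower, together 6.74%, of all genes, and 0 had an adjusted p under 0.05.

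Other desmosome genes did not stand out, but all of those kept except desmin were dim. Of 12 with a probe, 7 were kept, 2 of them higher and 5 lower with a median of -0.02, and 0 had an unadjusted p under 0.05. Apart from desmin, the kept genes read 79.7 to 109.2 units, close to the limits. Dsg1a was above the limit on 2 arrays and Pkp1 on 3. The offset shrinks differences of such dim probes, so these counts cannot tell whether the genes follow Perp. Desmocollins 1 and 3 (Dsc1, Dsc3), plakophilin 3 (Pkp3) and the desmogleins Dsg1c and Dsg3, best known from epithelia, were not kept. Their spots stayed at or below the limit on at least 3 of 4 arrays. Desmin (Des), the filament protein to which desmoplakin anchors, was at 10.42 and 10.50 in wild type against 10.21 and 10.53 in the knockout, with an unadjusted p of 0.468 and a difference of -0.09 ± 0.12.

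At the junctions beside the desmosome, 15 adherens and 14 tight junction genes were kept, and 0 of either had an unadjusted p under 0.05. The adherens genes were higher in 4 and lower in 11, with a median of -0.01, and the tight junction genes higher in 6 and lower in 8, with a median of -0.02. The gene with the smallest p in the first list was Nectin3, an adhesion receptor, at 6.62 and 6.58 in wild type against 6.65 and 6.75 in the knockout. In the second list it was Cxadr, the coxsackievirus and adenovirus receptor of the disc, at 6.45 and 6.45 against 6.34 and 6.36, with an unadjusted p of 0.051.

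Among 9 kept genes of gap junctions and channel partners, 4 were higher and 5 lower. Bves, a cAMP-binding membrane protein of the Popeye family, was at 8.15 and 8.22 in wild type against 8.38 and 8.48 in the knockout, a difference of 0.24 ± 0.06 with a limma unadjusted p of 0.0091 and an adjusted p of 0.727. Gjc1, connexin 45, was at 7.72 and 7.73 in wild type against 7.54 and 7.62 in the knockout, a difference of -0.15 ± 0.05 with an unadjusted p of 0.0269.

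Among 23 kept actin and filament genes of the disc, 12 were higher and 11 lower, with a median of 0.05. Xirp1, an actin-binding protein of the disc, was at 6.93 and 6.84 in wild type against 7.04 and 7.07 in the knockout, a difference of 0.17 ± 0.05. Parva, parvin alpha, which binds integrin-linked kinase, was at 7.20 and 7.30 in wild type against 7.12 and 7.08 in the knockout, a difference of -0.15 ± 0.05. Their limma unadjusted p-values were 0.0228 and 0.0365, and the adjusted p of each was 0.727.

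Relatives of Perp by protein family, PMP22, the epithelial membrane proteins and claudin-like genes, showed no such difference. Of 8 kept, 4 were higher and 4 lower with a median of -0.001 and 0 with an unadjusted p under 0.05. The smallest p was that of Emp1, at 7.68 and 7.65 in wild type against 7.53 and 7.61 in the knockout, a difference of -0.09 ± 0.04.

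Other targets of p53 went both ways. Of 20 kept, 12 were higher and 8 lower with a median of 0.03. Ddit4, an inhibitor of mTOR signalling, had a difference of 0.96 ± 0.34 and rested on the first wild-type array, which was at 6.85 against 7.86 to 8.36 on the other 3. Without that array the difference was 0.45. Btg2, an antiproliferative factor, was lower, at 7.03 and 7.14 against 6.64 and 6.72. Their limma unadjusted p-values were 0.0427 and 0.00147, and the adjusted p of each was 0.727.

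**Figure D5:**
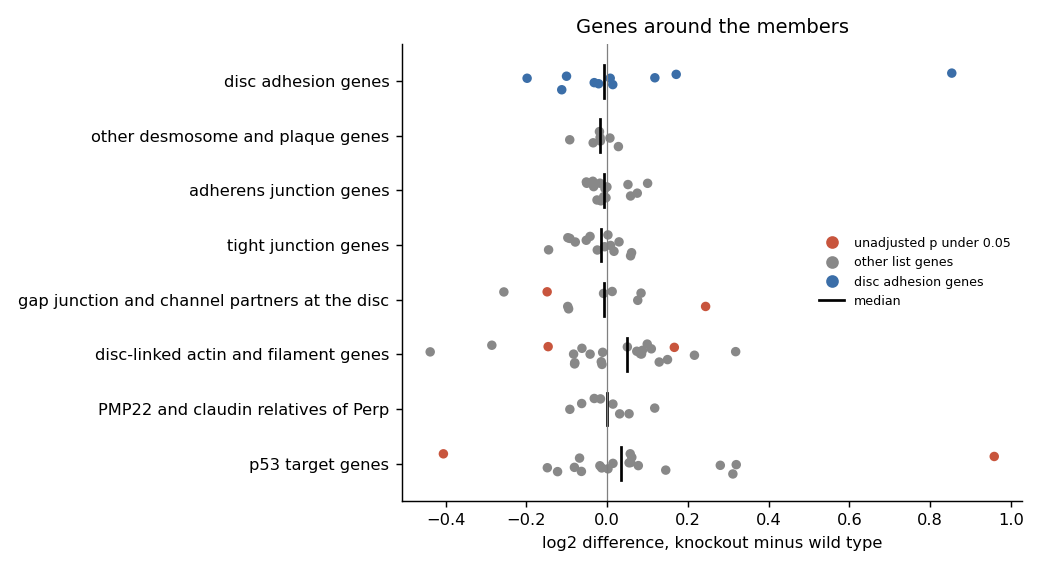
Log2 difference (knockout minus wild type) of the 10 disc adhesion genes (blue) and of the kept genes of 7 related lists (grey, or red at a limma unadjusted p under 0.05), with a black line at each median. The list medians lie between -0.02 and 0.05, and the blue point at 0.85 is Perp.

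The genes most like Perp over the 4 arrays came from other systems. Likeness was the distance between log2 values centred on the mean of each gene, and the 5 nearest were Tuba8, Ankrd9, Nfil3, H2ac22 and Spen, at 0.18, 0.244, 0.269, 0.396 and 0.399. Tuba8 is an alpha-tubulin, Nfil3 a transcriptional repressor, H2ac22 a histone H2A gene and Spen a transcriptional corepressor. Pkp4 was the nearest member, at 0.699, and Pkp2 the farthest, at 1.06. With 4 arrays this distance describes little beyond the difference that chose Perp. Of these 5, 0 were among the 5 nearest by the values of the authors, and Tuba8 alone was among them when only genes with a value on all 4 arrays were taken.

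By gene order on the Perp chromosome in GRCm38.p6, the nearest kept genes were Hebp2 and Arfgef3 on one side and Tnfaip3 and Olig3 on the other. Arfgef3, Tnfaip3 and Olig3 differed by 0.003 ± 0.045, -0.07 ± 0.04 and 0.02 ± 0.05. Hebp2, a heme-binding protein gene, was at 5.76 and 5.79 in wild type against 5.94 and 5.88 in the knockout, without overlap. It was above background on 2 of 4 arrays, both of the knockout, and so was kept through the group where it was higher, and no size is given for its difference.

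Markers of cells that could carry Perp into the samples were dim. Of 12 epithelial and mesothelial markers, 9 were kept, and Krt5, Krt8 and Trp63 were above background on at most 1 array. All 12 spots read between 79.4 and 107.7 units on the 4 arrays. Their summed normalized intensity was 566.3 to 578.9 units in wild type and 577.5 to 583.4 units in the knockout. Of the 9 kept, 4 were higher and 5 lower, with a median of -0.004. The groups did not overlap in 3 higher genes, where 19.4% of all genes did the same. These were Upk3b, Msln and Krt19, with differences of 0.12 ± 0.04, 0.09 ± 0.05 and 0.06 ± 0.04, and Wt1, also of the mesothelium that covers the heart, had one of -0.05 ± 0.06. Their part in the Perp difference was not tested.

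Summed intensities of the markers of several other cell types did not overlap between the groups. Of 6 atrial markers 5 had a probe, with 2 higher, 3 lower and a median of -0.0003, and their sum was 3636 to 3644 units in wild type and 4434 to 6586 units in the knockout. Nppa carried that sum, at 11.68 and 11.64 in wild type against 11.99 and 12.61 in the knockout. Tbx5 was also higher without overlap, with a difference of 0.08 ± 0.06, and Bmp10 lower, with one of -0.12 ± 0.06, while Myl7, an atrial light chain, read 91.6 to 107.9 units, close to background. The sum of 4 blood markers was 1064 and 2727 units in wild type and 3216 to 3416 units in the knockout. All 4, Hba-a2, Hbb-bs, Hbb-bt and Alas2, were higher without overlap, where 19.4% of all genes did the same. The globin differences rested mostly on the first wild-type array. There Hba-a2 was at 8.73 against 10.17 to 10.5 on the other arrays, Hbb-bs at 8.79 against 10.24 to 10.56 and Hbb-bt at 7.01 against 8.19 to 8.59.

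The endothelial sum was 9164 to 9762 units in wild type and 10200 to 11100 units in the knockout, with Fabp4 higher and Egfl7 and Cdh5 lower without overlap. The fibroblast sum was 4209 to 4630 units in wild type and 3388 to 3888 units in the knockout, with decorin (Dcn) lower without overlap, a difference of -0.47 ± 0.13. The smooth muscle sum was 1527 to 1628 units in wild type and 1635 to 2166 units in the knockout, with Acta2 higher without overlap. The leukocyte sum overlapped, at 1447 to 1670 and 1661 to 1951 units, with C1qa higher without overlap. Among cardiomyocyte markers Myl3 was higher and Pln lower without overlap. Fabp4, Dcn and Acta2 carried the endothelial, fibroblast and smooth muscle sums. By gene, the markers of each of these cell types went both ways. Endothelial markers were 3 higher and 4 lower (median of -0.05), and fibroblast markers 3 and 3 (0.003). Smooth muscle markers were 1 higher and 3 lower (-0.002), leukocyte markers 5 and 2 (0.02), and cardiomyocyte markers 6 and 4 (0.08). The part of any of these in the Perp difference was not tested.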

How the data were processed

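Total RNA of 4 ventricle samples was amplified, labelled with Cy5 and hybridised to Toray arrays, per the labels' protocols. The deposited scanner files give, per the file headers, the median intensity of each spot and of the background around it. The authors' table holds intensity values as well. Set against the spot medians it was a straight line with residuals of at most 0.0523 units, after subtraction of 78.4 to 87.7 units and scaling by 0.807 to 1.02. Each column has a median of 25, and 3714 to 4955 dim probes per array are empty. No source used here gives the rule that emptied them.

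Spot medians were corrected with normexp (offset of 50, no local background) and quantile normalized in limma 3.58.1 under R 4.3.3. Kept probes exceeded the 95th percentile of 384 blank and 96 negative control spots on at least 2 arrays, and the brightest kept probe stood for a gene. Groups were compared with lmFit and eBayes, two-sided, with Benjamini-Hochberg adjustment over all 15955 genes, and the step was tested on simulated data. Of the array's probes, 20690 had 1 gene symbol in the platform annotation. Samples were grouped by their titles.

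Members and lists were chosen with earlier results of these data known. Named were all members, from each list up to 4 genes with an unadjusted p under 0.05 or else the one with the smallest p, the 5 genes nearest to Perp, Trpc6, and markers without overlap. Myl7, Wt1, Krt5, Krt8, Trp63, the epithelial desmosome genes and the neighbours of Perp were named after their values were seen. Alternatives changed background, normalization, filter, source, probe, variance model, replicate term and arrays used.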

Additional observations from a re-analysis of the deposited data

How the results depend on the processing

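The Perp difference was positive in all 14 alternatives, from 0.74 to 0.99 on the log2 scale. It was 0.92 with an offset of 0, 0.744 with the local background subtracted and 0.993 in the authors' table, and 0.818 to 0.89 with an array left out. Perp was chosen for this sign. The alternatives of filter and of probe could not change its value, since its only probe was above background on all 4 arrays. Of the other 9 genes, 4 were higher, and 2 after scaling to a common median, with 3 to 4 when an array was left out. With the local background subtracted 3 were higher, where Dsp and Ctnna3 turned lower and Dsc2 turned higher. Genes past an adjusted p of 0.05 numbered 0 in every setting except without the second wild-type array, where Hba-a2 passed at 0.0487, so arrays left out gave 0 to 1. Genes at an unadjusted p under 0.05 were 585 higher and 491 lower, and ranged over alternatives from 217 to 1143 higher and from 194 to 1201 lower. Genes of the surrounding lists at that p numbered 6, or 6.25% of them against 6.74% of all genes. They numbered 2 (2.08% against 5.58%) at an offset of 0, 13 (13.5% against 8.05%) with the local background subtracted, 12 (12.5% against 7.2%) with the replicate number as a block, and 6 to 11 with an array left out, the most without the first wild-type array (11.5% against 14.7%). The cause of these shifts was not tested. The block gave 0 genes at an adjusted p of 0.05, and the within-group deviations of same-numbered arrays correlated at 0.0967, so the labels' numbers are not taken as pairs. Detection of all 44 member spots held at the 99th percentile of control spots and above the local background. Of the 5 genes nearest to Perp, 0 recurred in the authors' table, and 1 among genes with a value on all 4 arrays, a setting added after the data were seen. Signal over background limits the 5 dimmest members.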
